A study of Mus musculus with 8 samples.

Results

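Genes that build and define T cells were followed across 8 microarrays of mouse brain RNA. The list holds 9 genes of the T cell receptor complex and of T cell identity: Cd3d, Cd3e, Cd3g, Cd247, Cd4, Cd8a, Cd2, Cd5 and Lck. They were chosen by name for their role, with earlier results of these data known, and no value entered the rule. In all, 7 of the 9 had a probe set with exactly 1 gene symbol, out of 22180 genes measured that way. Cd247, the zeta chain, and Lck, the kinase that starts receptor signalling, were not analysed here.

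All mice had been immunized with a myelin antigen, MOG, which sets off an autoimmune attack on the central nervous system, and brains were collected on day 14, at the height of disease. Wild-type mice received NDP-MSH, a stable analog of the melanocortin hormone alpha-MSH, or PBS (2 arrays each). C57BL/6Je/e mice, called e/e here, carry the recessive yellow allele that inactivates the melanocortin receptor Mc1r, and they also received NDP-MSH or PBS (2 arrays each). NDP-MSH was injected into a vein at 5 µg per mouse on days 8, 10 and 12 after immunization. The e/e allele is present in every cell of these mice, and the labels do not say whether an array holds RNA of a single mouse, so p-values describe the spread between arrays, which may be technical.

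On the T cell surface, the antigen-binding receptor chains are held by the CD3 gamma, delta and epsilon chains and the zeta chain, which carry the signal into the cell. CD4 and CD8 are coreceptors that bind MHC class II and class I molecules and bring Lck to the receptor, while CD2 and CD5 are surface proteins that aid adhesion or tune the signal. Healthy brain tissue holds few T cells. In MOG disease, CD4 T cells enter the nervous system and set off the inflammation, together with monocytes and macrophages. In RNA of whole tissue, fewer T cells and less RNA per T cell cannot be told apart.

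Values are the deposited ones, taken as log2 and centred by gene on the median of the 8 arrays, so they show differences between arrays and no levels. Each of the 7 genes was read by 1 probe set, and the stored precision placed all 7 at a signal between 4 and 8 before centring. This is the lower of the 2 signal ranges found in the table, and it held 26066 of all 33793 probe sets. Arrays of the same group were not alike in other ways. Xist, the female transcript, lay at -4.46 and -4.56 on the e/e NDP-MSH arrays, against 0.56 and -0.82 in e/e PBS 1 and 2, and between -0.56 and 0.67 in wild-type arrays. The Y-linked Eif2s3y lay at 2.78 and 2.87 on the e/e NDP-MSH arrays and at -0.02 and 2.04 on the e/e PBS arrays, against at most 0.02 in wild-type arrays. e/e PBS 2 thus held transcripts of both kinds, and in e/e mice sex and treatment cannot be told apart. The median of 11 cerebellar genes was -1.91 and -1.69 on the wild-type NDP-MSH arrays, against -0.14 and 0.21 on the wild-type PBS arrays, and pituitary genes had a median of 2.98 in wild-type NDP-MSH 1, against at most 0.06 on the other arrays. In wild-type mice the cerebellar difference and treatment cannot be told apart. e/e PBS 1 and e/e PBS 2 lay far apart in immune genes, and the comparisons of the members that use them are also given without each.

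The members differed in how widely they varied, also within the CD3 complex. Over the 8 arrays Cd3e spanned 1.97 log2 units, Cd4 1.94 and Cd3g 1.77, a wider range than in 99.4%, 99.4% and 99.2% of all genes. Cd2 spanned 0.58, Cd5 0.55 and Cd8a 0.43, more than 85.9%, 83.7% and 69.9% of all genes. Cd3d spanned 0.27, more than 35.7% of all genes, where the median gene spanned 0.33. Cd3d, whose product pairs with CD3 epsilon, was thus the 1 member that varied less than the median gene. The reason was not tested.

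Cd3e and Cd3g, for the epsilon and gamma chains, showed a like pattern, with the same array at the top. Cd3e lay at 1.08 and -0.04 on the wild-type NDP-MSH arrays and at 0.24 and 0.04 on the wild-type PBS arrays. It lay at -0.78 and -0.89 on the e/e NDP-MSH arrays and at -0.75 and 0.08 on the e/e PBS arrays. Wild-type NDP-MSH 1 was the highest array, the e/e NDP-MSH arrays were the lowest, and e/e PBS 1 lay next to them while e/e PBS 2 lay among the wild-type arrays. Cd3g lay at 0.79 and -0.02 on the wild-type NDP-MSH arrays and at 0.02 and 0.23 on the wild-type PBS arrays. On e/e arrays it lay at -0.98 and -0.80 after NDP-MSH, and at -0.69 and 0.44 after PBS. Both wild-type groups overlapped for both genes. The e/e groups did not overlap, by a margin of 2 close values (-0.78 and -0.75) for Cd3e, and e/e PBS 1 was nearer to the e/e NDP-MSH arrays than to e/e PBS 2. Cd3d lay at 0.03 and 0.15 on the wild-type NDP-MSH arrays, -0.04 and 0.02 on the wild-type PBS arrays, -0.13 and -0.02 on the e/e NDP-MSH arrays, and -0.11 and 0.09 on the e/e PBS arrays.

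**Figure D1:**
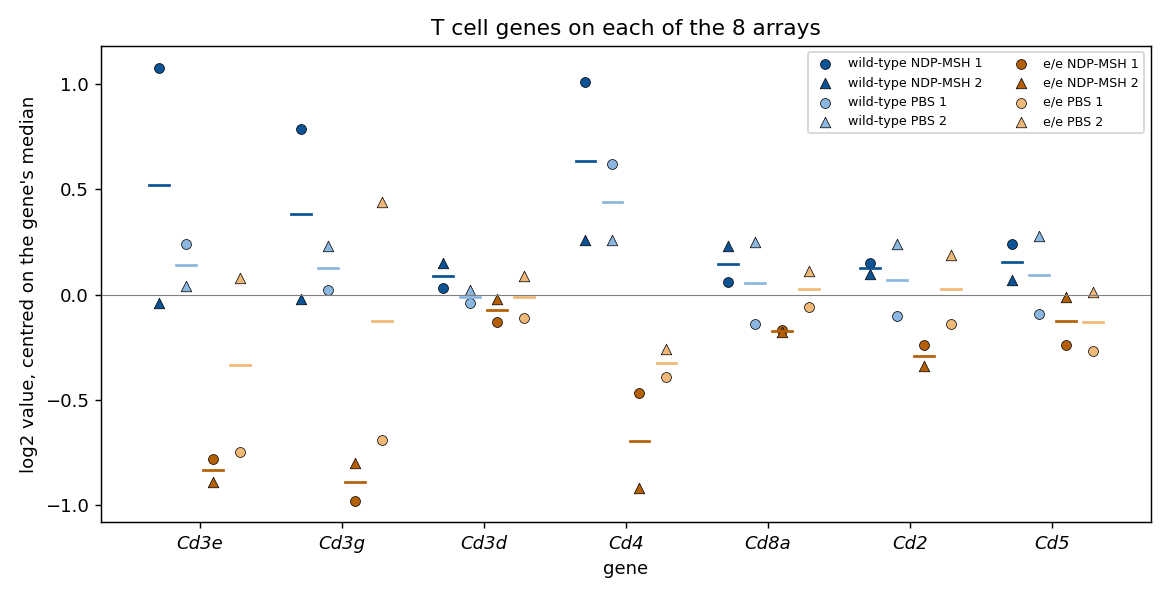
Centred log2 value (vertical axis) of each measured T cell gene (horizontal axis) on the 8 arrays; circles are replicate 1, triangles replicate 2, and short bars the mean of the 2 arrays of a group. Cd3e, Cd3g and Cd4 spread over 1.77 to 1.97 units with wild-type NDP-MSH 1 at the top, while Cd3d stayed within 0.27.

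Cd3g, Cd3d and Cd3e lie close together on mouse chromosome 9, and their promoter windows are shown because 2 of these neighbours varied widely and the third did not. The sequences are those of RefSeq for GRCm38.p6, from 250 bases before to 50 bases after the gene start, read 5′ to 3′ on the gene's own strand. The windows of Cd3g and Cd3d, which are transcribed away from each other, are separated by 854 bases. Capitals mark the Ets core AGGAAG, or CTTCCT on the other strand, and the E box CACCTG, or CAGGTG on the other strand.
Cd3e, chr9:45009562-45009861, minus strand: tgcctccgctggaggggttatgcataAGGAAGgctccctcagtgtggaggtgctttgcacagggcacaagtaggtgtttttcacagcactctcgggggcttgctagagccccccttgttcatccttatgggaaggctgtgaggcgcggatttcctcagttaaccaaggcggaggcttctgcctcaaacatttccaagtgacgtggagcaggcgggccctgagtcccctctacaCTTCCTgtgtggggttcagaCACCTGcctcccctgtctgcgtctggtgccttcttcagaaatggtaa
Cd3g, chr9:44980382-44980681, minus strand: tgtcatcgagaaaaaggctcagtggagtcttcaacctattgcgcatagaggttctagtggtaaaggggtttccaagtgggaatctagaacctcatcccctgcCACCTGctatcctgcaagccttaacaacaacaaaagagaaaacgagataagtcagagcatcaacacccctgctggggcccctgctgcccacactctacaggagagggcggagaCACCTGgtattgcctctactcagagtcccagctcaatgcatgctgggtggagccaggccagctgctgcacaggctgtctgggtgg
Cd3d, chr9:44981536-44981835, plus strand: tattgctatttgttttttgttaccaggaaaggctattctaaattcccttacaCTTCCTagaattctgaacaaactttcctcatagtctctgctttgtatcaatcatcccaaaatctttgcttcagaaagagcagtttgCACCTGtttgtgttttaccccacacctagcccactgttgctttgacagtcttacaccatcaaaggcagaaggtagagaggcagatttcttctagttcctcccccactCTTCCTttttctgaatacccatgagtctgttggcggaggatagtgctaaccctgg
The E box was in all 3 windows, with 2 copies in that of Cd3g and 1 in each of the others. The Ets core had 2 copies in the window of Cd3e, 2 in that of Cd3d and 0 in that of Cd3g. Among the 8 windows that the table holds for 7 of the listed genes (Cd247, Lck with 2 windows, Cd8a, Cd3g, Cd3d, Cd3e and Cd5), 7 held the E box and 6 held the Ets core, while 20.2% and 35.4% of 32851 windows of this length held them. The Runx sequence TGTGGT was in 1 of the 8 windows and in 16.8% of all, TATAAA in 0 of the 8 and in 13.6% of all, and CCAATC in 0 of the 8 and in 16.1% of all, each searched on both strands. The motifs were chosen with the windows in view, and a match describes letters, not binding. No 2 matches overlapped in the windows shown.

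The coreceptor genes differed in how far they varied. Cd4 lay at 1.01 and 0.26 on the wild-type NDP-MSH arrays and at 0.62 and 0.26 on the wild-type PBS arrays. It lay at -0.47 and -0.92 on the e/e NDP-MSH arrays and at -0.39 and -0.26 on the e/e PBS arrays. All 4 e/e arrays were thus below all 4 wild-type arrays, also e/e PBS 2, where Cd3e and Cd3g stood at 0.08 and 0.44. Cd8a lay at 0.06 and 0.23 on the wild-type NDP-MSH arrays and at -0.14 and 0.25 on the wild-type PBS arrays. Cd8a in e/e mice lay at -0.17 and -0.18 after NDP-MSH, and at -0.06 and 0.11 after PBS. The genotypes overlapped for Cd8a, since wild-type PBS 1 lay within the range of the e/e arrays. In mice Cd4 transcript is also found in some dendritic cells, so that it is a less strict T cell marker than the CD3 genes.

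**Figure D2:**
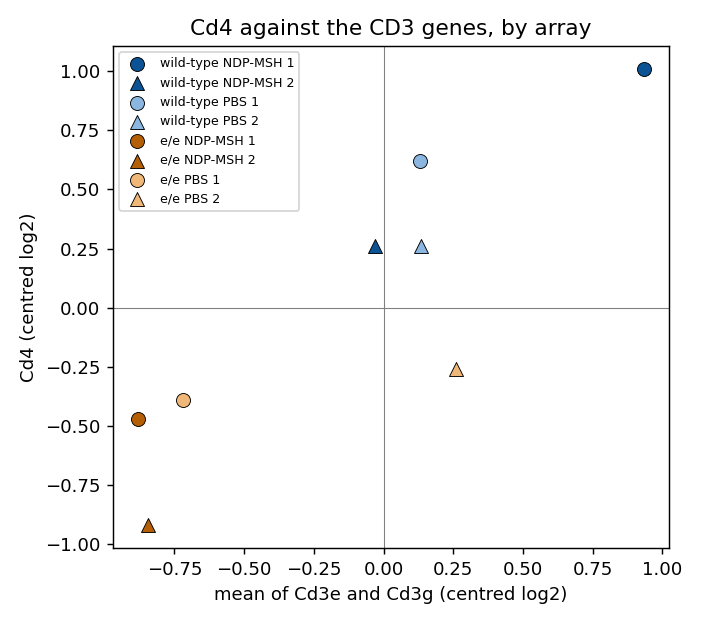
Cd4 (vertical axis) against the mean of Cd3e and Cd3g (horizontal axis), both as centred log2 values, 1 point for each array; colours give the group, circles replicate 1 and triangles replicate 2. e/e PBS 2 stood with the wild-type arrays on the CD3 axis and below all of them for Cd4, at -0.26.

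Cd2 and Cd5 varied over a smaller span. Cd2, the adhesion receptor that binds CD48 in mice, lay at 0.15 and 0.10 on the wild-type NDP-MSH arrays, against -0.10 and 0.24 on the wild-type PBS arrays, and at -0.24 and -0.34 on the e/e NDP-MSH arrays, against -0.14 and 0.19 on the e/e PBS arrays. Cd5, a brake on receptor signalling, lay at 0.24 and 0.07 on the wild-type NDP-MSH arrays, against -0.09 and 0.28 on the wild-type PBS arrays. Cd5 in e/e mice lay at -0.24 and -0.01 after NDP-MSH, and at -0.27 and 0.01 after PBS. The wild-type groups overlapped for Cd2 and Cd5, and for Cd5 the e/e groups overlapped too.

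The first comparison named by the series is NDP-MSH against PBS in wild-type mice, which have a working Mc1r. Both NDP-MSH arrays were also low in cerebellar genes, of which 7 of 11 were lower at an adjusted p under 0.05 (limma). Treatment and this difference in cerebellar signal cannot be told apart here. No T cell gene passed an adjusted p of 0.05 (limma, Benjamini-Hochberg over 22180 genes), where 0.176% of all genes did. All 7 means were higher after NDP-MSH, by a median of 0.10, while 55.0% of all genes were higher, by a median of 0.02. The members share the arrays and vary together (Pearson r between 0.36 and 0.94 for pairs). Here and below, counts of members are thus not counts of separate observations. Cd3e differed by 0.38 ± 0.37 (SE, adjusted p = 0.711), Cd3g by 0.27 ± 0.37 and Cd4 by 0.19 ± 0.26. The 95% interval ran between -0.49 and 1.25 for Cd3e, so that differences of either sign were within reach of these arrays. At an unadjusted p of 0.05, 0 of 7 passed, against 12.3% of all genes. The groups were apart for 1 of the 7, Cd3d, with higher values after NDP-MSH by a narrow margin (0.03 against 0.02), where 25.3% of all genes were higher without overlap. An exact permutation test of 2 arrays against 2 cannot give a two-sided p under 0.333. Without wild-type NDP-MSH 1, the array with high pituitary transcripts, Cd3e differed by -0.18, Cd3g by -0.14 and Cd4 by -0.19. The positive sign of these 3 was thus not seen without that array, and the median of the 7 was then -0.03. Without wild-type PBS 1, Cd2 differed by -0.11, Cd5 by -0.13 and Cd8a by -0.10. Cd3d alone stayed above 0 whichever array was left out (0.04 to 0.16).

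The second comparison is NDP-MSH against PBS in e/e mice, without working Mc1r. Here too no member passed (smallest adjusted p = 1.0 by limma), and 0 of 22180 genes passed (0.0%). Of the 7 means, 6 were lower after NDP-MSH, where 46.3% of all genes were lower, and the median was -0.31, against 0.01 for all genes. Cd3g differed by -0.76 ± 0.37 with an interval from -1.64 to 0.11. Cd3e differed by -0.49 ± 0.37, Cd4 by -0.37 ± 0.26, Cd2 by -0.31 ± 0.14, and Cd5 by 0.01 ± 0.16. At an unadjusted p of 0.05, 0 of 7 passed, against 3.56% of all genes. The NDP-MSH arrays were below both PBS arrays without overlap for 5 of the 7 (Cd3e, Cd3g, Cd4, Cd8a and Cd2), against 14.3% of all genes. For Cd3e, Cd3g and Cd2 the size rested on e/e PBS 2, since without that array they differed by -0.08, -0.19 and -0.15. Cd8a differed by -0.20 ± 0.13, by -0.28 without e/e PBS 1 and by -0.11 without e/e PBS 2. The median of the 7 was then -0.11. Cd4 differed by -0.31 without e/e PBS 2, and by -0.15 without e/e NDP-MSH 2. Without e/e PBS 1 the values were -0.91 for Cd3e, -1.33 for Cd3g (adjusted p = 0.187) and -0.48 for Cd2. With 1 PBS array left, that array was taken to vary like the other groups.

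Whether the NDP-MSH effect differed between genotypes was tested as the e/e effect minus the wild-type effect. Both effects carry what cannot be told apart from treatment, cerebellar signal in wild-type mice and sex in e/e mice. The difference was below 0 in 7 of 7 members, where 52.8% of all genes were below 0, and 0 passed (limma, adjusted p between 0.698 and 0.969). It was -1.03 ± 0.53 for Cd3g, -0.87 ± 0.53 for Cd3e, -0.56 ± 0.36 for Cd4 and -0.38 ± 0.20 for Cd2. Without e/e PBS 2 it was -0.46 for Cd3g, -0.46 for Cd3e, -0.50 for Cd4 and -0.21 for Cd2, and without e/e PBS 1 it was -1.60, -1.29, -0.63 and -0.54 for these genes in that order. Without wild-type NDP-MSH 1 it was -0.62 for Cd3g, -0.31 for Cd3e and -0.19 for Cd4, and without wild-type NDP-MSH 2 it was -1.43 for Cd3g, -1.44 for Cd3e and -0.94 for Cd4. Leaving out e/e NDP-MSH 2 or wild-type PBS 2 gave -0.34 and -0.38 for Cd4, and leaving out wild-type PBS 1 gave -0.21 for Cd2. The size of the difference thus varied with single arrays. Over all genes 0.0% passed, and 7.71% had an unadjusted p under 0.05, as did 0 of the 7 members.

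Genotype was compared under PBS and, as an addition made after the values were seen, under NDP-MSH. Under PBS the 7 means were lower in e/e, that of Cd3d by as little as 0.999-fold, where 49.9% of all genes were lower. None passed the adjusted threshold, nor did any other gene (0.0%), and 1 of 7 had an unadjusted p under 0.05, against 4.91% of all genes. Cd4 differed most, by -0.77 ± 0.26 (limma, adjusted p = 0.971), and it was the 1 member whose groups did not overlap, where 16.7% of all genes were lower without overlap. Cd3e differed by -0.48 ± 0.37 and Cd3g by -0.25 ± 0.37. Without e/e PBS 1 Cd3e differed by -0.06, Cd3g by 0.32 and Cd4 by -0.70, and the median of the 7 was 0.05, against -0.23 with all arrays. Without e/e PBS 2 Cd3e differed by -0.89, Cd3g by -0.82 and Cd4 by -0.83, and the median was -0.36. Of these 3 genes, Cd4 thus kept its size without either array. Under NDP-MSH, e/e arrays were below both wild-type arrays for 7 of 7 members, where 23.6% of all genes were lower without overlap and 52.4% were lower by any amount. Cd3e differed by -1.35 ± 0.37 (0.391-fold), Cd4 by -1.33 ± 0.26 (0.398-fold) and Cd3g by -1.28 ± 0.37 (0.413-fold). Cd2 differed by -0.42 ± 0.14, Cd8a by -0.32 ± 0.13, Cd5 by -0.28 ± 0.16 and Cd3d by -0.16 ± 0.09. None passed over all genes, where 0.338% did. The smallest adjusted p was 0.0933, for Cd4, and 5 of 7 had an unadjusted p under 0.05, against 14.2% of all genes. Without wild-type NDP-MSH 1 the 3 widest differences were -0.79 for Cd3e, -0.95 for Cd4 and -0.87 for Cd3g. These groups also differed in sex-linked, cerebellar and pituitary transcripts, whose part in the result was not tested.

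**Figure D3:**
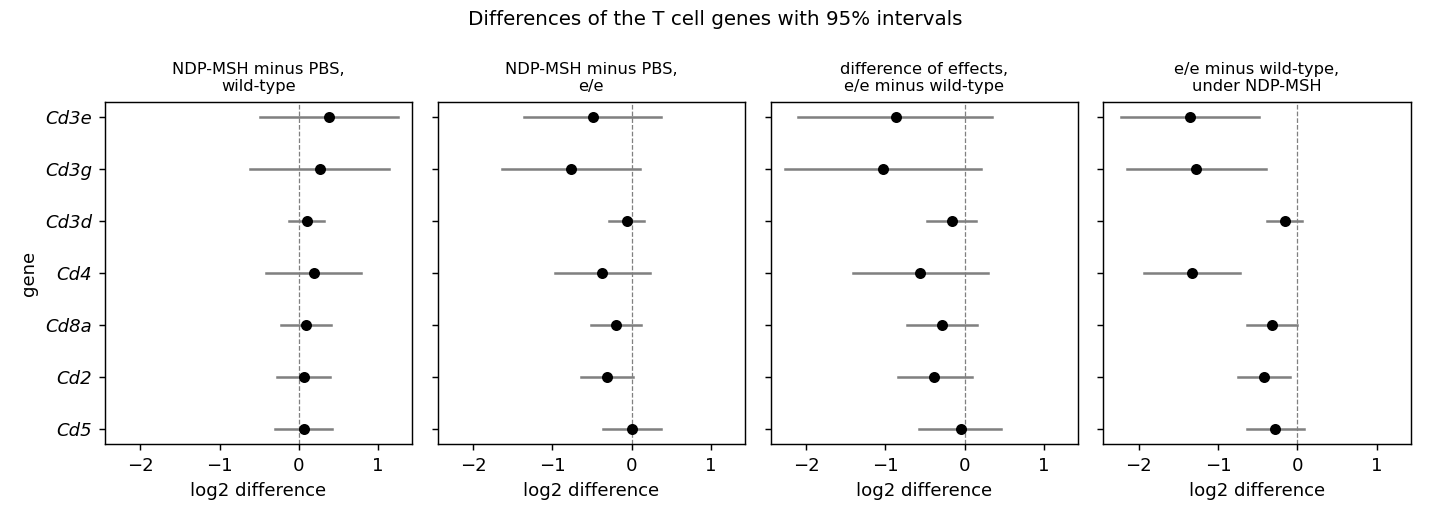
Log2 difference (horizontal axis, point) with its 95% interval (line) for each T cell gene (vertical axis) in 4 comparisons, from the limma fit over 8 arrays. The intervals of both NDP-MSH comparisons cover 0 for the 7 genes, and under NDP-MSH Cd3e, Cd3g and Cd4 lay between -1.35 and -1.28 in e/e relative to wild-type.

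For Cd3e, Cd3g, Cd4, Cd2 and Cd8a the mean was lowest in e/e NDP-MSH and next lowest in e/e PBS, and highest in wild-type NDP-MSH. Cd3e averaged 0.52 in wild-type NDP-MSH and 0.14 in wild-type PBS, and -0.83 in e/e NDP-MSH and -0.34 in e/e PBS. Cd4 averaged 0.64 in wild-type NDP-MSH and 0.44 in wild-type PBS, and -0.70 in e/e NDP-MSH and -0.32 in e/e PBS. Neighbours in this order overlapped for Cd3e between the wild-type groups and between e/e PBS and wild-type PBS. For Cd4 only the wild-type groups overlapped. Cd5 averaged 0.16 in wild-type NDP-MSH and 0.10 in wild-type PBS, and -0.12 in e/e NDP-MSH and -0.13 in e/e PBS, and both of these pairs overlapped.

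Other genes that act in T cells, from lists written with earlier results of these data known, were read beside the members. Some of them, such as Ptprc, are not confined to T cells. Of 26 measured genes of proximal receptor signalling, 0 passed in any of the 5 comparisons. In wild-type mice 15 were higher after NDP-MSH (median 0.02), where 55.0% of all genes were. The smallest p were those of Csk, the kinase that restrains Lck, at 0.36 ± 0.11 (limma, adjusted p = 0.298), and Skap1, an adhesion adaptor, at 0.18 ± 0.07. In e/e mice 20 were lower (median -0.12), where 46.3% of all genes were, with Sla2 at -0.27 ± 0.08 and Skap1 at 0.22 ± 0.07. Leaving out e/e PBS 2, 17 were lower (median -0.05). In wild-type mice 10 were higher without PBS 1 (median -0.05), and 18 without NDP-MSH 2 (median 0.12). Without wild-type PBS 1, Csk differed by 0.20 in wild-type mice. Zap70, the kinase that binds the phosphorylated CD3 and zeta chains, kept within 0.34 over the arrays, with 0.14 and 0.13 on the wild-type NDP-MSH arrays, -0.03 and 0.08 on the wild-type PBS arrays, -0.20 and -0.08 on the e/e NDP-MSH arrays, and -0.02 and 0.02 on the e/e PBS arrays. Spans differed within the list, since Ptprc, the CD45 phosphatase of all leukocytes, spanned 2.70 and Lcp2, an adaptor, 1.64, while the kinase gene Fyn spanned 0.22 and the ubiquitin ligase gene Cblb 0.23.

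Of 26 costimulation, adhesion and cytokine receptor genes, 0 passed in either NDP-MSH comparison. In wild-type mice 11 were higher (median -0.02), where 55.0% of all genes were. The smallest p were those of Cd7, a surface protein of T and natural killer cells, at 0.43 ± 0.09 and Cd28, the main costimulatory receptor, at 0.35 ± 0.10 (limma, adjusted p = 0.188 and 0.257). Cd28 lay at 0.35 and 0.33 on the wild-type NDP-MSH arrays, against 0.08 and -0.10 on the wild-type PBS arrays. Both NDP-MSH arrays were thus higher, as for 25.3% of all genes. After NDP-MSH 21 were lower in e/e mice (median -0.17), where 46.3% of all genes were, with Il2rb at -0.57 ± 0.22 and the integrin gene Itgb2 at -1.08 ± 0.47. Without e/e PBS 2, 15 were lower (median -0.04), with Il2rb at -0.22 and Itgb2 at -0.35, and without e/e PBS 1, 22 were lower (median -0.31), with Il2rb at -0.93 and Itgb2 at -1.81. In wild-type mice 19 were higher without NDP-MSH 2 (median 0.09) and 17 without PBS 2 (median 0.14), against 7 without NDP-MSH 1 (median -0.12). Il7r, the interleukin 7 receptor of resting T cells, read 1.03 and -0.08 on the wild-type NDP-MSH arrays, 0.08 and 0.63 on the wild-type PBS arrays, -1.19 and -0.90 on the e/e NDP-MSH arrays, and -1.06 and 0.72 on the e/e PBS arrays. Zap70, Ptprc, Lcp2, Fyn, Cblb and Il7r were picked with their values in view.

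Of 14 transcription factor genes of T cells, 10 were higher in wild-type mice after NDP-MSH (median 0.06), where 55.0% of all genes were. Without wild-type PBS 1, 7 were higher (median 0.01), and without wild-type PBS 2, 11 were (median 0.14). In e/e mice 11 of the 14 were lower (median -0.10), where 46.3% of all genes were, and 0 of the 14 passed the threshold in either comparison. Leaving out e/e PBS 2, 7 were lower in e/e mice (median -0.02), and without e/e PBS 1, 11 were (median -0.24). Runx3, a factor of cytotoxic T cells, differed by 0.31 ± 0.09 in wild-type and by -0.28 ± 0.09 in e/e mice. Its difference of effects was -0.59 ± 0.13 (limma, adjusted p = 0.416). Bcl11b, needed for T cell identity and also active in neurons, differed by 0.36 ± 0.13 in wild-type mice, 0.22 without wild-type PBS 2, and Ets1 by -0.33 ± 0.10 in e/e mice.

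The median of the members was low on the same arrays as the medians of myeloid genes and of interferon gamma-induced genes. The 7 members had a median of 0.24 and 0.10 on the wild-type NDP-MSH arrays, -0.04 and 0.24 on the wild-type PBS arrays, -0.24 and -0.34 on the e/e NDP-MSH arrays, and -0.27 and 0.09 on the e/e PBS arrays. Monocyte, macrophage and dendritic cell genes (15 of 16 measured) had a median of 0.46 and 0.05 on the wild-type NDP-MSH arrays, 0.01 and 0.40 on the wild-type PBS arrays, -0.90 and -1.05 on the e/e NDP-MSH arrays, and -0.81 and 0.14 on the e/e PBS arrays. The e/e NDP-MSH arrays and e/e PBS 1 were thus low in both lists. Interferon gamma-induced genes (11 of 13) had a median of -2.09 and -2.06 on the e/e NDP-MSH arrays and at -1.82 and 0.70 on the e/e PBS arrays, and between -0.29 and 0.58 in wild-type arrays. The array medians of B cell genes (11 of 14) ran between -0.06 and 0.07, those of natural killer and cytotoxic genes (13 of 14) between -0.07 and 0.15, those of microglial genes (9 of 10) between -0.31 and 0.35, and those of neutrophil genes (10 of 10) between -0.21 and 0.36. Single genes of these lists varied more, such as Cd22 of the B cell list, which spanned 0.70, and Ccl5 of the cytotoxic list, which spanned 3.78. The part of these cells in the T cell values was not tested. Since the table holds no levels, whether the defining B cell or natural killer genes were at background cannot be read.

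**Figure D4:**
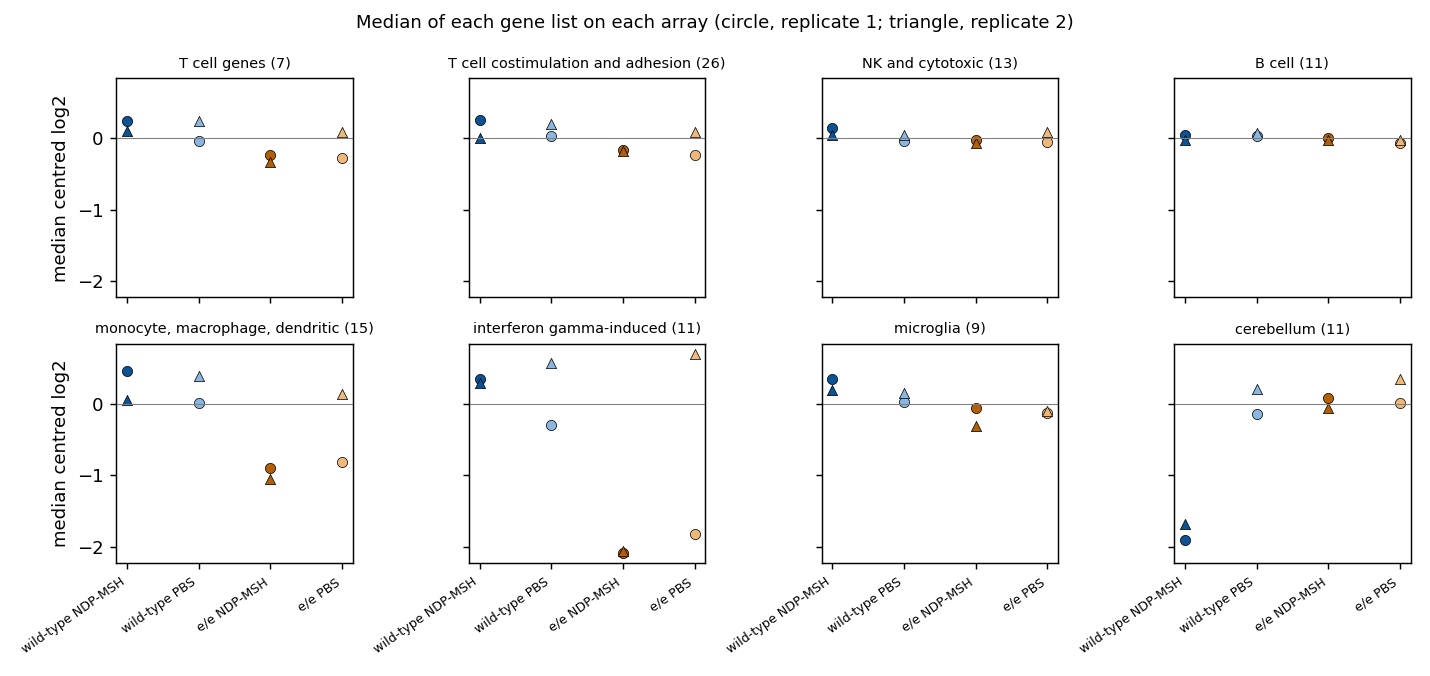
Median centred log2 value (vertical axis) of 8 gene lists on each array, by group (horizontal axis); circles are replicate 1 and triangles replicate 2, and the number of measured genes stands in each title. The T cell, myeloid and interferon gamma lists were low on 3 arrays (e/e NDP-MSH 1 and 2 and e/e PBS 1), while the cerebellar list was low in wild-type NDP-MSH.

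Among all other genes, those whose pattern over the 8 arrays was most like the mean of the 7 members were Itgam (Pearson r = 0.990), Ptbp3 (0.990), Ccl9 (0.989), Ms4a4a (0.989), Cyp1b1 (0.987), Fermt3 (0.983), Slc7a11 (0.981), F13a1 (0.980), Saa3 (0.980) and H2-T24 (0.979). Predicted genes, small RNAs and olfactory receptor genes were left out of this ranking. The mean of the members was -0.35 or lower on 3 arrays and 0.07 or higher on the other 5, a split that all points of these coefficients share. Itgam encodes the CD11b integrin chain of myeloid cells, F13a1 a coagulation factor of macrophages, and Ccl9 a chemokine. Itgam lay at 0.80 and -0.01 on the wild-type NDP-MSH arrays, 0.01 and 0.40 on the wild-type PBS arrays, -0.90 and -1.10 on the e/e NDP-MSH arrays, and -0.85 and 0.21 on the e/e PBS arrays. Within the list Cd3e and Cd3g were most alike (r = 0.94), Cd4 was most like Cd3e (0.92), and Cd8a and Cd2 were most like each other (0.91). The least alike pair was Cd3d and Cd4 (0.36).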

How the data were processed

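Total brain RNA of 8 samples was hybridised to Affymetrix whole-transcript arrays, with biotin-labelled cDNA, per the labels' protocols. The deposited table holds 33793 probe sets with the authors' processed values, taken as log2. Log base, summarisation and normalization were not stated in the labels or headers. Every row is centred on its median (largest absolute row median 5e-07). Array medians lay between -0.0043 and 0.0142. The number of arrays limits precision.

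Probe sets with 1 symbol in the platform annotation (23521, of which 23328 matched a RefSeq Entrez identifier) were averaged by gene, without a filter. 1814 with several symbols were left out, and 8458 are unnamed here. limma 3.58.1 (R 4.3.3) fitted 1 coefficient per group to 8 arrays (4 residual and 3.45 prior degrees of freedom), with two-sided moderated tests, adjusted by Benjamini-Hochberg over 22180 genes, at 0.05. Tested on simulated data of 22180 genes for the wild-type comparison, the fit called 20% of the genes changed by 0.5 (log2) and 92% of those changed by 1. The changed genes were drawn at random, so these shares do not hold for Cd3e, Cd3g and Cd4, which varied more than most genes. Between genotypes under NDP-MSH, Cd3e at -1.35 ± 0.37 was not called (limma, adjusted p = 0.169). Signal ranges came from the single-precision step left in the values (tolerance 0.05 of a step). Base 2 is an assumption behind every fold.

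The members, listed by role, and all lists were chosen with earlier results of these data known. The text names all members, the 2 smallest p of the T cell lists in the NDP-MSH comparisons, and the 10 genes most like the member mean, without predicted, small RNA and olfactory receptor symbols. Other genes named were chosen after their values were seen. Constant region genes of the receptor (0 of 14 symbols matched) and red blood cell genes (0 of 7) gave no value. Alternatives were the replicate block, array weights, quantile normalization, centring, only the arrays compared, single probe sets, genes with 1 probe set, a signal of 8 or above, robust moderation and leaving out each array. Slide and scan date were not used here, so no batch was tested. Figures were drawn with matplotlib 3.10.9.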

Additional observations from a re-analysis of the deposited data

How the results depend on the processing

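No member passed the threshold in any of the 5 comparisons under any of 16 alternative settings (15 for the difference of effects; smallest adjusted p = 0.0516 by limma, for Cd3g between genotypes under NDP-MSH without e/e PBS 1, and likewise without e/e PBS 2). Of 553 member values under alternatives, 531 kept their direction and 22 changed it, but many of the 553 could not change. Array weights were equal within each group, so they leave a member's difference as it was. So do the replicate block, robust moderation, only the arrays compared, single probe sets, and genes with 1 probe set. Leaving out an array of a group not compared does too. With quantile normalization the wild-type difference of Cd4 was -0.05. Leaving out 1 array at a time, the wild-type differences ran from -0.18 to 0.94 for Cd3e, -0.14 to 0.67 for Cd3g, -0.19 to 0.57 for Cd4, -0.11 to 0.23 for Cd2, -0.13 to 0.25 for Cd5 and -0.10 to 0.29 for Cd8a. The lowest values came without wild-type NDP-MSH 1 for Cd3e, Cd3g and Cd4 and without wild-type PBS 1 for Cd2, Cd5 and Cd8a. In e/e mice they ran from -0.16 to 0.04 for Cd3d and -0.13 to 0.14 for Cd5, the difference of effects from -0.24 to 0.13 for Cd5, and the genotype difference under PBS from -0.21 to 0.13 for Cd2, -0.10 to 0.10 for Cd3d, -0.82 to 0.32 for Cd3g and -0.23 to 0.16 for Cd8a.

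Counts of all genes past the threshold moved more. In wild-type mice 39 genes passed, 14 with the replicate block, 18 with quantile normalization, 5 with only the arrays compared and 0 to 49 without 1 array. In e/e mice 0 passed, 789 at an unadjusted p under 0.05, and 0 to 51 without 1 array. For the difference of effects 0 passed, 1 with quantile normalization, 3 at a signal of 8 or above and 0 to 7 without 1 array. Between genotypes 0 passed under PBS (0 to 4 without 1 array), and 75 under NDP-MSH, 17 with quantile normalization, 477 with only the arrays compared and 0 to 471 without 1 array. Single arrays moved these counts: without wild-type PBS 2 the wild-type count was 0, without e/e PBS 1 the e/e count was 51 and without e/e PBS 2 it was 4. Without e/e NDP-MSH 1 the count between genotypes under NDP-MSH was 0, and without e/e PBS 1 or 2 it was 471. The cause of these shifts was not tested. For the genotype comparison under NDP-MSH, leaving out e/e PBS 1 or e/e PBS 2 is the same fit, since a single array left in a group adds no spread. Members had no value at a signal of 8 or above. The labels give each group replicates 1 and 2. Their deviations correlated between groups from -0.25 to 0.44 over genes, so the numbers were not taken as pairs, and no member passed with the replicate block.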

Other observations

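Variable segments of the T cell receptor, which encode its antigen-binding part, gave 8 gene values, a set formed after the annotation was read. Such segments are near-copies of each other, so each value may hold signal of its relatives. Trbv13-2 spanned 0.79, with 0.15 and 0.44 on the wild-type NDP-MSH arrays, -0.05 and 0.51 on the wild-type PBS arrays, 0.05 and -0.28 on the e/e NDP-MSH arrays, and -0.05 and -0.14 on the e/e PBS arrays. Trav9d-3 spanned 0.56, and the other 6 spanned between 0.09 and 0.33. No segment passed in the 5 comparisons (limma, smallest adjusted p = 0.41), and the median difference was 0.03 in wild-type and -0.01 in e/e mice after NDP-MSH.

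Cytotoxic genes were read as well. Gzma, the granzyme A of cytotoxic and natural killer cells, lay at 0.40 and 0.51 on the wild-type NDP-MSH arrays, against -0.09 and 0.17 on the wild-type PBS arrays, and at -0.09 and -0.31 on the e/e NDP-MSH arrays, against -0.25 and 0.09 on the e/e PBS arrays. Its wild-type difference was 0.42 ± 0.14 (limma, adjusted p = 0.329), and both NDP-MSH arrays were higher, as for 25.3% of all genes. Ccl5, a chemokine of T cells and other leukocytes, spanned 3.78, with -2.59 and -2.73 on the e/e NDP-MSH arrays and -2.39 and 0.29 on the e/e PBS arrays.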
